A study of Mus musculus with 24 samples.

Results

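Liver RNA from C57BL/6 mice that received CBLB502 followed by cisplatin was compared with liver RNA from untreated mice of that strain. The comparison used 6 of the 24 RNA-seq libraries of the series, 3 per group, which were chosen by their labels and not by a measured value. Mice of the combination group received 0.2 mg/kg CBLB502, then 20 mg/kg cisplatin into the peritoneum 30 min later, and the liver was collected at 72 h. Controls were labelled as having no treatment, and neither an injection of vehicle nor a collection time was given for them in the sources used here, so that the strain is all that the groups are stated to share. Liver of mice given 20 mg/kg cisplatin alone or 0.2 mg/kg CBLB502 alone, 3 libraries each at 72 h, was set beside these groups at the end. Whether each library stands for its own mouse is not stated in the labels. The p-values therefore measure the spread between libraries, which may be technical.

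CBLB502 is a protein derived from bacterial flagellin that activates Toll-like receptor 5 (TLR5), whose signal runs through MyD88 to the transcription factor NF-kB. In liver such a signal is known to be followed by the acute phase response, in which interleukin 6 and STAT3 raise the synthesis of defence proteins by hepatocytes. Cisplatin crosslinks DNA and thereby activates p53, which induces the cell cycle inhibitor Cdkn1a and its own antagonist Mdm2.

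The 2 groups of libraries differed in make-up before any gene was compared. Mitochondrial genes took 72.2, 69.3 and 72.0% of the counts in control libraries 1, 2 and 3 (71.2% ± 1.64, SD, n = 3) and 4.87, 4.39 and 5.25% in the combination (4.84% ± 0.433, SD, n = 3), and the groups did not overlap (two-sided exact permutation test, p = 0.1, the smallest that 3 against 3 libraries allow). A further 19.8 to 20.9% of control counts and 1.33 to 1.56% of combination counts lay on 7 pseudogenes on chromosome 1, between 24611535 and 24616197 on GRCm38, that copy mitochondrial sequence. With both left out, 2.82, 4.65 and 3.08 M (mega) counts remained in the controls and 67.1 to 68.7 M in the combination, of totals of 40.6 to 42.6 and 71.2 to 73.4 M. Genes coding for small RNAs took 3.44 to 5.23% of the remaining counts in controls and 0.0869 to 0.0925% in the combination. The kind of control library and the absence of treatment cannot be told apart in any comparison with the controls below, and the shallower controls had a median SD of 0.540 in log2 level between libraries against 0.203 in the combination.

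**Figure D1:**
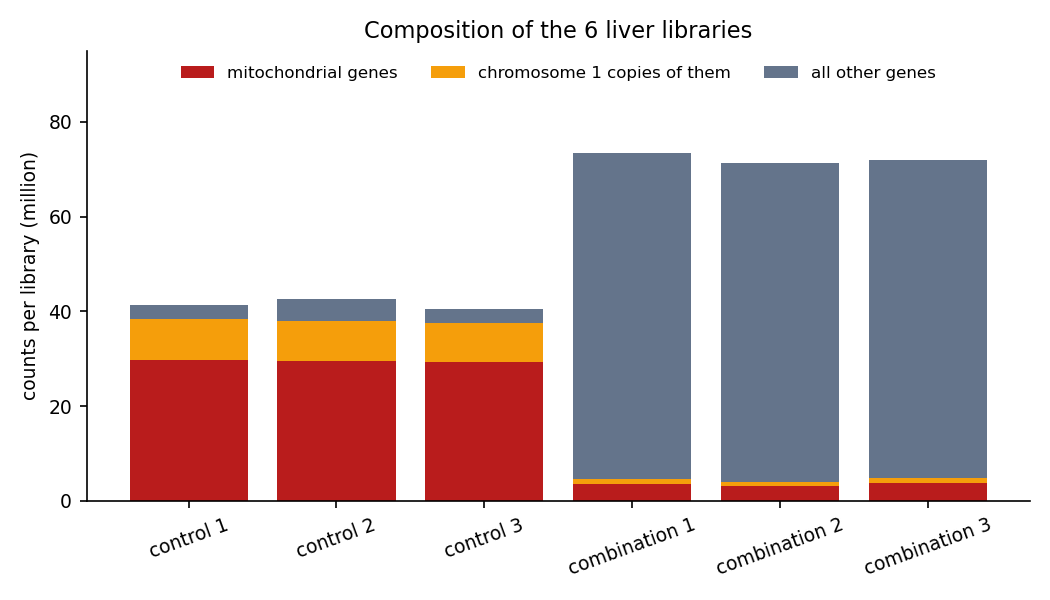
Counts per library (M, vertical axis) in the 3 control and 3 combination livers, split into mitochondrial genes, their chromosome 1 copies and all other genes. The counts of all other genes, on which every later value rests, are 2.82 to 4.65 M in the controls and 67.1 to 68.7 M in the combination.

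Levels are given as counts per M (CPM) of the counts outside the mitochondrial genes and their copies, scaled by TMM (trimmed mean of M-values). Of 15554 genes tested by edgeR's quasi-likelihood test, 24.7% were higher and 19.4% lower in the combination at a Benjamini-Hochberg adjusted p below 0.05, which is the background for each count below. Among protein-coding genes this background varied with the share of G and C bases (GC) in the longest transcript. At 30.96 to 44.84% GC, 34.0% were higher and 11.8% lower. At 54.49 to 72.83% GC, 17.1% were higher and 30.3% lower. The part of GC in the counts of the lists was not tested. Levels of the 2 groups did not overlap for 33.6% of genes with the combination higher and for 24.2% with it lower. The median log2 fold change of all genes was 0.06 with TMM, -0.08 with median-of-ratios scaling and -0.26 with upper-quartile scaling, and higher genes made up 56.0% of the calls with TMM and 41.5% with upper-quartile scaling. In the deposited FPKM the median was 1.77 and higher genes made up 99.0% of the calls. Without combination 1, 2 or 3 the number of higher genes was 2367, 2407 or 2390 in place of 3839. Every "rose" and "fell" below is on the TMM scale, and a gene that fell there but not in FPKM is marked as such. Nfkb1, Nfkb2, Relb and Vcam1 carry no mark, nor do genes below 1 FPKM in both groups. Where nothing else is said of a gene, all 3 combination libraries lay on one side of all 3 controls.

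Among the libraries, control 1 stood apart. It held 340 CPM of Cfd and 69.1 CPM of Adipoq, both made by fat cells and both at 0 in controls 2 and 3, and 131 CPM of the smooth muscle actin Acta2 against 5.55 and 17.47 CPM. Counts that change without this library are given beside the group concerned. Because the strand setting of the counting is not given in the sources used here, genes that overlap another gene are uncertain, among them Cdkn1a, Ddb2, Serpina3m, Stat3, Mt2, Fkbp5, Usp2, Dbp, Npas2, Mlxipl, Por, Bhmt and Igkc. The same holds for close relatives that can share reads, namely Saa1 with Saa2, Cyp4a10 with Cyp4a14, the Serpina3 genes, Hba-a1 with Hba-a2 and Hbb-bs with Hbb-bt.

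Targets of p53 were higher in the combination. Of 30 listed targets tested, 20 rose, 1 fell and 9 did not pass the test, with a median log2 fold change of 1.61, and the summed level of the list was 556 to 648 CPM in the controls and 2851 to 3402 CPM in the combination. Cdkn1a, which encodes the cyclin-dependent kinase inhibitor p21, was at 12.97, 7.21 and 14.2 CPM in the controls and 538, 542 and 463 CPM in the combination. All 3 combination libraries lay far above all 3 controls and close to each other, a rise of 44.95-fold (log2 fold change 5.50 ± 0.31 SE, adjusted p 0.000164). Mdm2, the ubiquitin ligase that degrades p53, was at 30.7, 39.2 and 40.6 CPM in the controls and 146, 96.2 and 104 CPM in the combination, with library 1 the highest and no overlap. It rose 3.14-fold (log2 fold change 1.65 ± 0.23 SE, adjusted p 0.00147).

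Several other p53 targets rose. Trp53inp1, which promotes p53-dependent death and autophagy, was at 26.9, 27.4 and 72.5 CPM in the controls and 812, 1008 and 674 CPM in the combination, and control 3, the highest control, was still far below the combination. The fold was 19.7-fold. Ddit4, an inhibitor of mTOR signalling, rose 16.7-fold, the antiproliferative gene Btg2 rose 9.69-fold, and Ccng1, a p53-induced cyclin, rose 7.12-fold. The receptor gene Eda2r had no count in any control and 10.02, 4.10 and 8.40 CPM in the combination, at least 34.2-fold higher (adjusted p 0.00275). It passed the filter on low counts only through the combination, so that a rise was fixed for it.

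Not every target moved this way. Bax, the effector of mitochondrial apoptosis, was at 47.6, 49.02 and 47.7 CPM in the controls and 48.4, 52.8 and 54.5 CPM in the combination, so that the groups overlapped, and its log2 fold change of 0.11 did not pass the test (adjusted p 0.578). Gdf15, a stress-induced cytokine, overlapped as well, with control 2 above all others: 6.98, 55.7 and 5.43 CPM in the controls and 33.6, 20.8 and 28.2 CPM in the combination. Ddb2, a sensor of damaged DNA, fell 2.35-fold (log2 fold change -1.22 ± 0.36 SE, adjusted p 0.0268) but was higher in FPKM and lost its call without control 1 (adjusted p 0.0609), control 3, combination 1 or combination 3. With the combination libraries thinned to control depth, 13 of the targets tested rose.

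Proliferation genes gave a mixed picture, with 4.17% called higher and 25.0% lower against 24.7% and 19.4% of all genes. Of 24 tested cell cycle genes, 1 rose, 6 fell and 17 did not pass the test, with a median log2 fold change of -0.69, a direction that held in the TMM, median-of-ratios and upper-quartile scales and not in FPKM (median 1.65). The member that rose was Pcna, the DNA polymerase clamp and itself a p53 target, at 16.5, 8.32 and 7.55 CPM in the controls and 35.9, 34.5 and 33.1 CPM in the combination with no overlap (3.20-fold). Mki67, the proliferation antigen, was at 7.48, 4.81 and 1.89 CPM in the controls and 0.150, 0.445 and 0.217 CPM in the combination, low in every library and lowest in the combination. It fell 17.5-fold. Ccnd1, a cyclin of the early cell cycle, fell 7.67-fold from 20.5 ± 17.9 CPM to 2.67 ± 0.886 CPM, with control 1 well above the other controls. Without combination library 2 or 3 the count that fell was 3, and without control 1 the count that rose was 3.

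Acute phase genes formed one of the clearest groups. Of 28 tested, 21 rose, 1 fell and 6 did not pass the test, with a median log2 fold change of 2.12, and their summed level was 22610 to 36350 CPM in the controls and 107500 to 133000 CPM in the combination. Lcn2, which encodes the iron-withholding protein lipocalin 2, was at 8.73, 15.4 and 17.2 CPM in the controls and 909, 1582 and 716 CPM in the combination. Combination 2 was the highest, and the lowest combination library exceeded the highest control many times over, a rise of 77.6-fold (log2 fold change 6.27 ± 0.45 SE, adjusted p 0.000213). The serum amyloid gene Saa1 was at 18.7, 44.6 and 79.6 CPM in the controls and 580.3, 1032 and 289.7 CPM in the combination, widely spread in both groups but without overlap. It rose 13.3-fold (log2 fold change 3.73 ± 0.65 SE, adjusted p 0.00367). Its relative Saa2 was at 13.7, 32.6 and 48.6 CPM in the controls and 204, 316 and 73.2 CPM in the combination. It rose 6.26-fold, although combination 3 lay near control 3 and the call was lost in a fit of all 12 liver libraries (adjusted p 0.151).

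The protease inhibitors of the group were steadier. Serpina3n, an inhibitor of granule proteases, was at 174, 188 and 225 CPM in the controls and 5219, 6116 and 4489 CPM in the combination. It rose 26.9-fold, and Serpina3m rose 26.2-fold. Fga, the fibrinogen alpha chain, was at 1328, 1273 and 1267 CPM in the controls and 7794, 9692 and 8252 CPM in the combination, with controls within a narrow band. It rose 6.66-fold (log2 fold change 2.73 ± 0.23 SE, adjusted p 0.000303). Hamp, which encodes the iron hormone hepcidin, was at 506, 1523 and 529 CPM in the controls and 1865, 2534 and 2697 CPM in the combination, where control 2 approached the combination. It rose 2.77-fold, a call that was lost without control 1 (adjusted p 0.0578), control 3 or any 1 combination library and with upper-quartile scaling (adjusted p 0.0741). The member that fell was Serpina3g, a serpin expressed in leukocytes, at 20.5, 9.62 and 15.1 CPM in the controls and 0.955, 1.17 and 2.80 CPM in the combination (9.17-fold).

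Receptors and signal carriers upstream of this response moved apart from each other. Of 17 tested genes of the interleukin 6 and STAT3 pathway, 7 rose, 1 fell and 9 did not pass the test, with a median log2 fold change of 0.81; 3 fell without control 1. Il6ra, the receptor chain that binds interleukin 6, was at 12.7, 10.4 and 21.95 CPM in the controls and 168, 159 and 165 CPM in the combination, with the 3 combination libraries nearly level. It rose 10.9-fold (log2 fold change 3.45 ± 0.30 SE, adjusted p 0.000328). Stat3, which carries the signal to the nucleus, rose 2.89-fold, and Cebpd, a transcription factor induced by STAT3, rose 6.48-fold. Lifr, the receptor for leukaemia inhibitory factor, was at 429.8, 538 and 329.6 CPM in the controls and 93.2, 63.7 and 81.2 CPM in the combination, the reverse arrangement. It fell 5.45-fold (higher in FPKM).

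The receptor of CBLB502 and the NF-kB pathway showed no rise. Tlr5 was at 0, 4.25 and 1.18 CPM in the controls and 2.83, 2.42 and 5.09 CPM in the combination; the groups overlapped, control 1 had no count, and the log2 fold change of 0.89 ± 1.05 SE did not pass the test (adjusted p 0.524). Of 21 tested genes of Toll-like receptor and NF-kB signalling, 0 rose, 6 fell and 15 did not pass the test, with a median log2 fold change of -0.48, a direction that turned in FPKM (median 1.42); 1 rose without control 3. Those that fell were the NF-kB subunits Nfkb1, Nfkb2 and Relb, the adhesion molecule Vcam1, and the chemokines Cxcl10 and Ccl5. In FPKM, 12 of the list were tested, with 11 called higher and 1 lower. At most 1 of the genes that fell was therefore called lower on that scale. Ccl5, which recruits T cells, was at 23.7, 17.8 and 3.78 CPM in the controls and 0, 0.222 and 0.158 CPM in the combination. It fell 119-fold. Cxcl10 was at 4.24, 5.74 and 1.89 CPM in the controls and 0.393, 0.768 and 0.197 CPM in the combination. It fell 8.73-fold, but lost its call without control 2 (adjusted p 0.0546) or combination 1. The letters searched for as the NF-kB motif were found in the promoters of 0 of Saa1, Saa2 and Lcn2 and in 0.411% of all promoters in the RefSeq table. Other forms of the motif were not searched for. The absence of letters this rare cannot decide whether these promoters hold NF-kB sites.

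**Figure D2:**
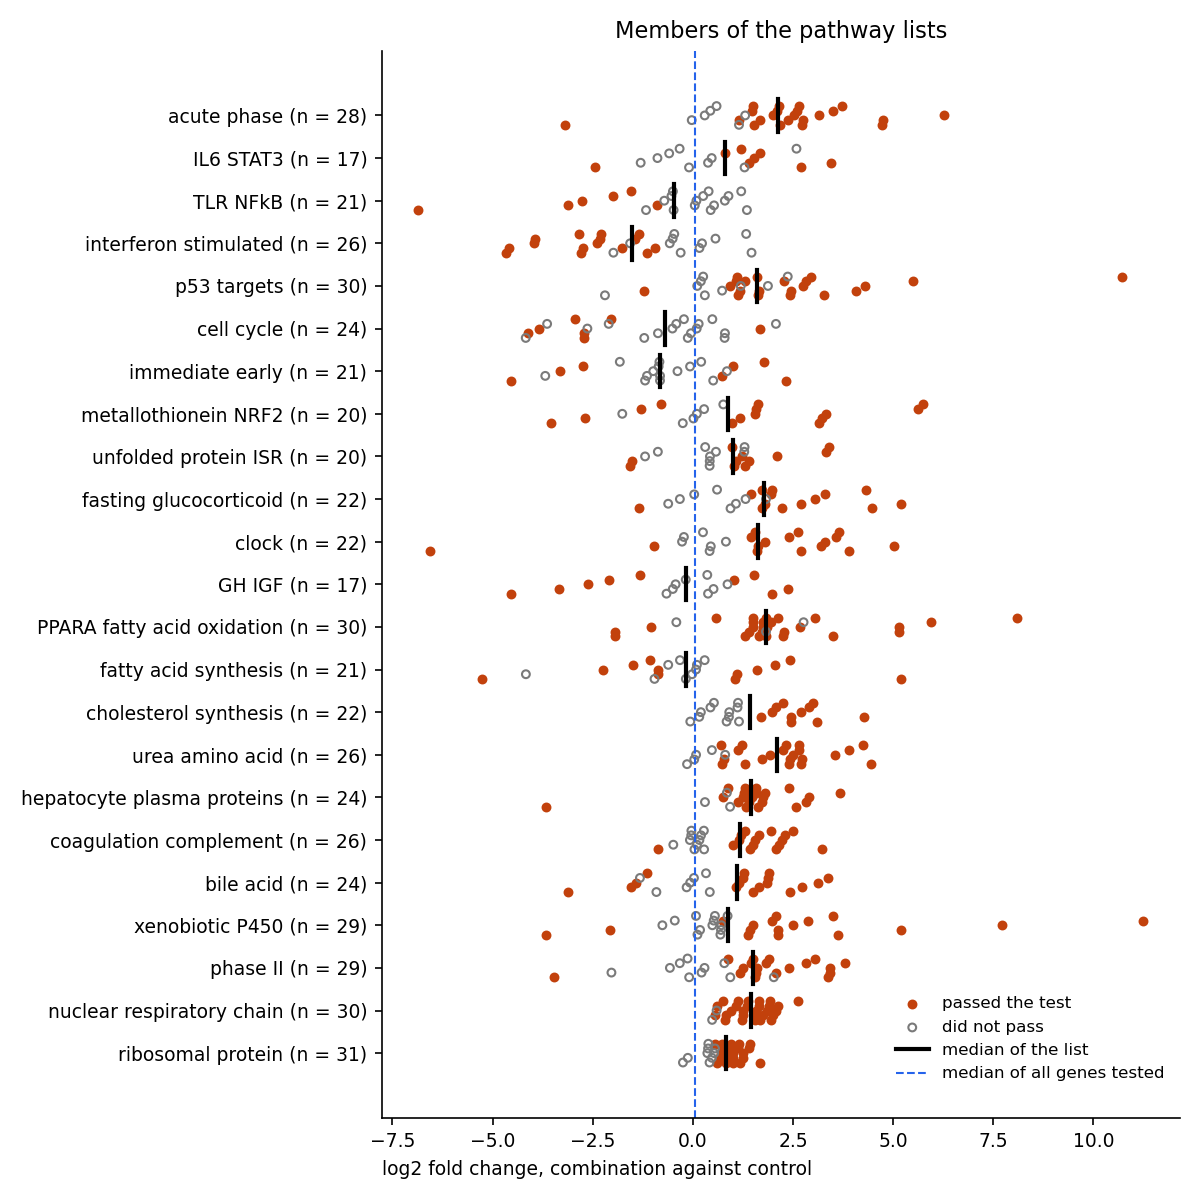
Log2 fold change, combination against control (horizontal axis), of each tested member of 23 pathway lists, with members that passed the test filled and the others open. Black bars are list medians and the dashed line is the median of all genes tested, 0.06; the acute phase median is 2.12 and the interferon median -1.51 on the TMM scale, which turns to 1.06 in FPKM.

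Metallothioneins, small proteins that bind zinc, copper and also platinum, were among the genes that rose most. Their transcription is driven by the zinc sensor MTF1 at metal response elements, and glucocorticoids and STAT3 are further known inducers. The promoters below are shown because both genes moved together. They run 5′ to 3′ from 250 bases before to 50 after the transcription start in the RefSeq table for GRCm38.p6, on the plus strand at chr8:94178839-94179138 for Mt1 and chr8:94172368-94172667 for Mt2. Capitals mark matches to TGCGCNC or TGCACNC on either strand, the letters used here for a metal response element.
Mt1: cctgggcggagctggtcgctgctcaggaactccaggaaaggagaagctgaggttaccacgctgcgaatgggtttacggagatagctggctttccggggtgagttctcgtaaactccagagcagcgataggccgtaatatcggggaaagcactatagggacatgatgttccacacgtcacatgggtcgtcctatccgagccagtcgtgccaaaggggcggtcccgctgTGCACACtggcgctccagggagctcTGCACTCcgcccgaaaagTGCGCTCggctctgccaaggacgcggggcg
Mt2: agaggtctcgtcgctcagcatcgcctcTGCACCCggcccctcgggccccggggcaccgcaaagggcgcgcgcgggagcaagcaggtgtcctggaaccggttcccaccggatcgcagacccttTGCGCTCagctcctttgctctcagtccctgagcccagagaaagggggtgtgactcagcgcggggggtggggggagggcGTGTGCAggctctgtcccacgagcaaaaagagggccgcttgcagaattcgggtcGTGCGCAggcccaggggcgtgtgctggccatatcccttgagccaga
The Mt1 window held 3 matches and the Mt2 window 4, and 25.7% of 32851 promoters of 300 bases held at least 1. A match is a description of the letters and not evidence of binding.

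Mt1 was at 52.4, 21.5 and 48.9 CPM in the controls and 1578, 2765 and 1660.4 CPM in the combination. Combination 2 was the highest library and control 2 the lowest, and the groups were separated by more than an order of magnitude, a rise of 48.9-fold (log2 fold change 5.62 ± 0.46 SE, adjusted p 0.000302). Mt2 was at 45.4, 4.07 and 18.4 CPM in the controls and 913, 1734 and 982 CPM in the combination, the same order of libraries. It rose 53.5-fold (log2 fold change 5.75 ± 0.84 SE, adjusted p 0.00186). The zinc exporter Slc30a1, another MTF1 target, rose 9.87-fold, and Slc39a14, a zinc and iron importer of hepatocytes, rose 8.85-fold from 76.6 ± 17.2 CPM to 678 ± 130.4 CPM (SD, n = 3).

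The antioxidant genes listed with them did not follow as a group. Over the 20 metallothionein and NRF2 genes tested, 10 rose, 4 fell and 6 did not pass the test, with a median log2 fold change of 0.87. Nqo1, a quinone reductase induced by NRF2, was at 2.49, 2.59 and 0 CPM in the controls and 17.03, 15.8 and 15.05 CPM in the combination, with control 3 at 0. It rose 9.42-fold. Hmox1, the haem oxygenase that is also an NRF2 target, was at 44.4, 19.8 and 48.9 CPM in the controls and 1.82, 3.72 and 4.14 CPM in the combination; every combination library lay below every control, and it fell 11.7-fold (log2 fold change -3.54 ± 0.46 SE, adjusted p 0.00117). Without control 2, control 3, combination 1 or combination 3, 2 members of the list fell in place of 4.

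Genes that fasting and glucocorticoids are known to induce were also higher. Of 22 tested, 13 rose, 1 fell and 8 did not pass the test, with a median log2 fold change of 1.77. Lpin1, a phosphatidate phosphatase and coactivator in the fasted liver, was at 39.2, 25.7 and 28.3 CPM in the controls and 1124, 1204 and 1094 CPM in the combination; libraries within each group were close, and it rose 36.7-fold (log2 fold change 5.20 ± 0.26 SE, adjusted p 0.000164). Fkbp5, a chaperone of the glucocorticoid receptor, was at 37.4, 16.3 and 14.6 CPM in the controls and 543, 502.3 and 454 CPM in the combination. It rose 21.9-fold. Control 1 was the highest control of both genes. Igfbp1, a binding protein of insulin-like growth factors that insulin represses, was at 31.9, 70.7 and 117 CPM in the controls and 497, 1033 and 643 CPM in the combination, with no overlap. It rose 9.91-fold (log2 fold change 3.31 ± 0.51 SE, adjusted p 0.00235). Gadd45b, a stress sensor, rose 19.6-fold, whereas the glucocorticoid-inducible kinase Sgk1 fell 2.55-fold from 31.7 ± 1.74 CPM to 12.4 ± 3.82 CPM (SD, n = 3; higher in FPKM).

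Clock genes differed as well. In the liver clock, Arntl and its partners Clock or Npas2 activate the Per, Cry, Nr1d and Dbp genes through E-boxes, and these products repress or modulate the loop. Of 22 tested genes, 14 rose, 2 fell and 6 did not pass the test, with a median log2 fold change of 1.62. Because the collection hour of the controls is not stated, time of day and treatment cannot be told apart here. The promoters of 2 members that rose are shown from the RefSeq table for GRCm38.p6, at chr11:69098699-69098998 on the plus strand for Per1, the first of its 2 starts, and at chr3:95882179-95882478 on the minus strand for Ciart. Capitals mark the E-box CACGTG, which reads alike on both strands.
Per1: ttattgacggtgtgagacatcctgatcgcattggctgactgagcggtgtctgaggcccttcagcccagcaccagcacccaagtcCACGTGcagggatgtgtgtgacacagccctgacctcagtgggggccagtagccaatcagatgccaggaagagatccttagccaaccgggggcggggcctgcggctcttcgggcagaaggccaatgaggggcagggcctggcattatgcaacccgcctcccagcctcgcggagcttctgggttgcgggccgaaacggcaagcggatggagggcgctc
Ciart: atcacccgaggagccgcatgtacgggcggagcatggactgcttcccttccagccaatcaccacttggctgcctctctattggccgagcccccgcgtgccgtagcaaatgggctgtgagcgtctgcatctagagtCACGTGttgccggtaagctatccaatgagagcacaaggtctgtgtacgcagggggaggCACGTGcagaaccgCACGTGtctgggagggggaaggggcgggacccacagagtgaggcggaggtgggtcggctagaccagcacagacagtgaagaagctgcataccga
The Ciart window held 3 E-boxes and the Per1 window 1, against 7.15% of all promoters with at least 1, and none was found in the windows of Dbp and Nr1d1.

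Ciart, a repressor of the activating pair, was at 2.99, 3.52 and 3.54 CPM in the controls and 38.4, 40.9 and 47.2 CPM in the combination, with libraries of each group close together. It rose 12.6-fold (log2 fold change 3.65 ± 0.21 SE, adjusted p 0.000164). Per1 was at 15.5, 17.2 and 21.2 CPM in the controls and 107, 137 and 105 CPM in the combination. It rose 6.48-fold (log2 fold change 2.70 ± 0.21 SE, adjusted p 0.000262). The output factor Dbp was at 4.74, 0 and 0 CPM in the controls and 26.9, 14.9 and 24.5 CPM in the combination, with 2 controls at 0; it rose 13.98-fold, a call lost without combination 1 (adjusted p 0.0828), 2 or 3 and with DESeq2 (adjusted p 0.146). Usp2, a rhythmic deubiquitinase, rose 32.7-fold and the repressor Nr1d2 9.57-fold.

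Npas2 and Arntl of the activating arm were lower. Npas2 was at 7.98, 12.6 and 19.6 CPM in the controls and 0.187, 0.222 and 0 CPM in the combination, nearly absent from the combination. It fell 98.03-fold (log2 fold change -6.57 ± 1.01 SE, adjusted p 0.00232). Arntl was at 19.7, 32.6 and 30.2 CPM in the controls and 14.7, 15.96 and 11.6 CPM in the combination with no overlap and fell 1.95-fold, but was higher in FPKM and not called without control 2 (adjusted p 0.0716), control 3 or combination 3. Nr1d1, an early repressor, was at 12.5, 11.8 and 2.83 CPM in the controls and 16.97, 13.1 and 18.1 CPM in the combination, with control 3 well below the other controls and no overlap, and did not pass the test.

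**Figure D3:**
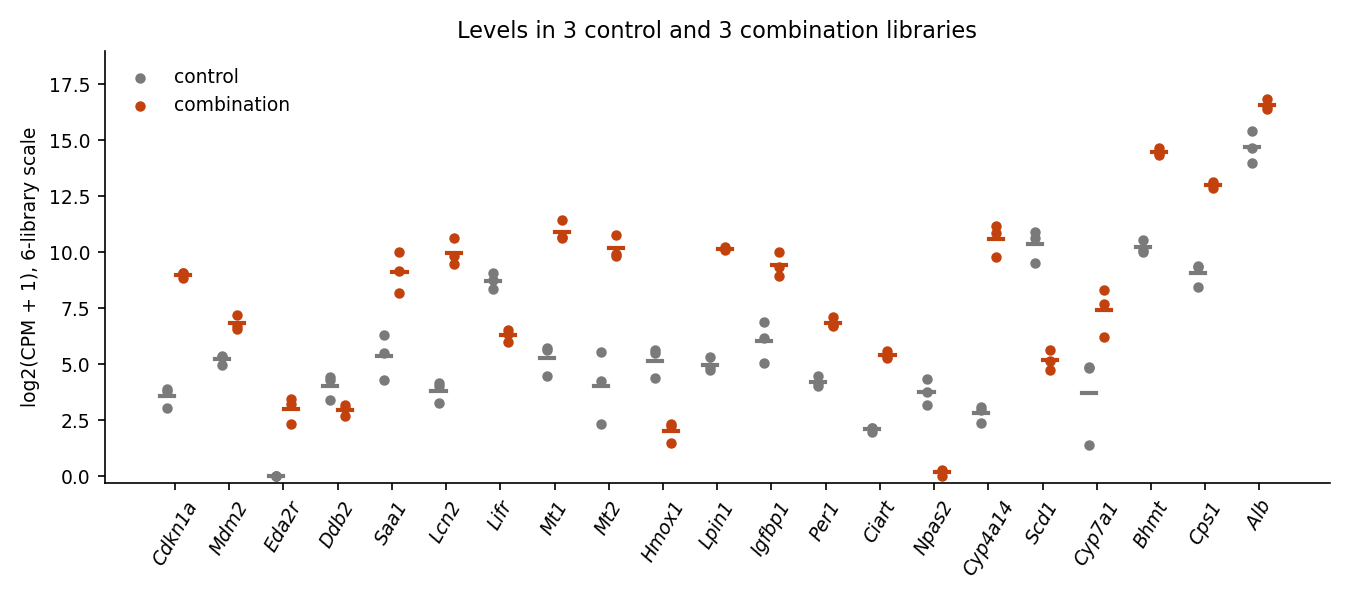
Level of 21 genes as log2(CPM + 1) (vertical axis) in the 3 control and 3 combination livers, with a bar at each group's mean. The groups do not overlap for any gene shown, Cdkn1a, Lcn2 and Mt1 lie several units higher in the combination, and Lifr, Hmox1, Npas2, Scd1 and Ddb2 lie lower, with Lifr and Ddb2 higher in FPKM.

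Genes of fatty acid oxidation, many of them known targets of the nuclear receptor PPARA, were mostly higher. Of 30 tested, 24 rose, 3 fell and 3 did not pass the test, with a median log2 fold change of 1.82, and 1 fell in the 12-library fit. Cyp4a14, a fatty acid omega-hydroxylase and sensitive PPARA target, was at 7.48, 6.84 and 4.25 CPM in the controls and 1876, 892 and 2312 CPM in the combination; combination 2 was the lowest of its group and still far above each control. It rose 273-fold (log2 fold change 8.09 ± 0.51 SE, adjusted p 0.000175). Cyp4a10 followed the same order of combination libraries, at 29.4, 31.6 and 13.5 CPM in the controls and 1760.5, 768 and 2044 CPM in the combination. It rose 61.4-fold. Cpt1a, which admits fatty acids to mitochondria, was at 58.9, 79.5 and 63.98 CPM in the controls and 599, 399.9 and 665 CPM in the combination. It rose 8.22-fold (log2 fold change 3.04 ± 0.26 SE, adjusted p 0.000332).

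Fatty acid synthesis was split, with 28.6% called in each direction against 24.7% higher and 19.4% lower of all genes. Of 21 tested genes, 6 rose, 6 fell and 9 did not pass the test, with a median log2 fold change of -0.18, with the median turning to 2.19 in FPKM. Scd1, the stearoyl-CoA desaturase that makes monounsaturated fat, was at 1593, 1898 and 742 CPM in the controls and 49.2, 25.6 and 34.5 CPM in the combination; the highest combination library was more than an order of magnitude below the lowest control, a fall of 38.7-fold (log2 fold change -5.27 ± 0.47 SE, adjusted p 0.000345). Mlxipl, which encodes the carbohydrate sensor ChREBP, was at 576, 1642 and 1262 CPM in the controls and 212, 225 and 295 CPM in the combination. It fell 4.76-fold (higher in FPKM). In the other direction Dgat2, which completes triglyceride synthesis, was at 89.05, 122 and 120.2 CPM in the controls and 596, 582 and 599 CPM in the combination. It rose 5.37-fold. The count that fell was 3 without control 2, combination 1 or combination 3.

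Cholesterol synthesis leaned upward, with combination 3 low within its group. Of 22 tested, 11 rose, 0 fell and 11 did not pass the test, with a median log2 fold change of 1.43. Msmo1, a sterol oxidase, was at 50.9, 63.5 and 21.5 CPM in the controls and 568, 455 and 133 CPM in the combination, with combination 3 far below the other 2. It rose 8.51-fold (log2 fold change 3.09 ± 0.61 SE, adjusted p 0.00609). Hmgcs1, an early enzyme of the pathway, was at 201, 731 and 56.7 CPM in the controls and 557, 476 and 104 CPM in the combination. Control 2 was the highest of all 6 libraries, the groups overlapped, and the log2 fold change of 0.20 did not pass the test (adjusted p 0.871).

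Amino acid and urea metabolism rose almost throughout. Of 26 tested genes, 21 rose, 0 fell and 5 did not pass the test, with a median log2 fold change of 2.09, and their summed level was 10550 to 16440 CPM in the controls and 80410 to 87300 CPM in the combination. Cps1, the entry enzyme of the urea cycle, was at 354, 649.7 and 676 CPM in the controls and 8949.6, 7618 and 8494 CPM in the combination; control 1 was the lowest library, the combination libraries were close together, and the gene rose 14.9-fold (log2 fold change 3.90 ± 0.33 SE, adjusted p 0.000316). Ass1, a later enzyme of the cycle, rose 5.32-fold. Bhmt, which remethylates homocysteine with betaine, was at 1044, 1112 and 1482 CPM in the controls and 25868, 20715 and 22234 CPM in the combination. It rose 18.9-fold (log2 fold change 4.24 ± 0.30 SE, adjusted p 0.0002). Mat1a, which makes S-adenosylmethionine, was at 726, 706 and 788 CPM in the controls and 15430, 16536 and 16436 CPM in the combination, level within each group. It rose 21.8-fold (log2 fold change 4.45 ± 0.25 SE, adjusted p 0.000164).

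Secreted hepatocyte proteins were higher too. Of 24 plasma protein genes, 20 rose, 1 fell and 3 did not pass the test, with a median log2 fold change of 1.44. Alb, the albumin gene and a defining hepatocyte marker, was at 25558, 44051 and 16450 CPM in the controls and 85179, 118070 and 94596 CPM in the combination, with control 2 above the other controls and no overlap. It rose 3.46-fold (log2 fold change 1.79 ± 0.43 SE, adjusted p 0.0135). Ttpa, which transfers vitamin E, rose 12.8-fold, and the retinol carrier Rbp4 rose 7.47-fold from 872 ± 216 CPM to 6519 ± 509 CPM (SD, n = 3). Of 26 coagulation and complement genes, 15 rose, 1 fell and 10 did not pass the test, with a median log2 fold change of 1.17. Mbl2, a lectin that starts complement activation, was at 116, 154 and 77.9 CPM in the controls and 1135, 989 and 1106 CPM in the combination. It rose 9.27-fold, and the clotting cofactor F5 rose 4.94-fold. The member that fell, the complement gene C8a, was at 487, 933 and 1029.8 CPM in the controls and 485, 445 and 401 CPM in the combination, was higher in FPKM and was not called without control 2 (adjusted p 0.134), control 3 or any 1 combination library.

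Bile acid genes rose more often than they fell. Of 24 tested, 13 rose, 4 fell and 7 did not pass the test, with a median log2 fold change of 1.11. Cyp7a1, which catalyses the first and limiting step of bile acid production, was at 28.4, 27.4 and 1.65 CPM in the controls and 321, 73.6 and 205 CPM in the combination; both groups were spread widely, with control 3 and combination 2 the lowest of each, and did not overlap. It rose 10.4-fold (log2 fold change 3.38 ± 0.90 SE, adjusted p 0.0193), a call lost without combination 1 (adjusted p 0.0594) and in the 12-library fit (adjusted p 0.112). Slc10a1, the bile salt importer NTCP, was at 85.1, 105 and 118 CPM in the controls and 839, 816 and 1042 CPM in the combination, with narrow groups. It rose 8.77-fold (log2 fold change 3.13 ± 0.22 SE, adjusted p 0.000209). Nr0b2, which encodes the repressor SHP of Cyp7a1, fell 2.91-fold from 59.8 ± 30.3 CPM to 20.6 ± 4.61 CPM (SD, n = 3), was higher in FPKM and lost its call in the 12-library fit (adjusted p 0.136). In that fit 7 members of the list rose in place of 13, and the count that fell was 2 without control 2 and 1 without control 3 or any 1 combination library.

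Detoxification enzymes rose in larger numbers than they fell. Of 29 tested cytochrome P450 and related genes, 15 rose, 2 fell and 12 did not pass the test, with a median log2 fold change of 0.87, and 8 rose in the 12-library fit, while 1 fell without control 1, combination 1 or combination 2. Cyp2b10, the classical target of the receptor CAR, was at 0, 0 and 0.472 CPM in the controls and 35.7, 37.02 and 23.9 CPM in the combination, with 2 controls at 0. It rose 204-fold (log2 fold change 7.73 ± 0.66 SE, adjusted p 0.000324). Por, which supplies electrons to all these enzymes, was at 44.6, 54.02 and 18.2 CPM in the controls and 1413, 1300.2 and 1586 CPM in the combination. It rose 36.8-fold (log2 fold change 5.20 ± 0.44 SE, adjusted p 0.000316). Cyp2e1, an enzyme of ethanol and paracetamol oxidation, rose 11.3-fold with tight groups, at 834, 799.6 and 707 CPM in the controls and 7782, 7989.6 and 10593 CPM in the combination. The Cyp3a11 gene, a target of the receptor PXR, rose 4.24-fold, at 265, 578 and 227 CPM in the controls and 1502, 1331 and 1704 CPM in the combination, and was not called in the 12-library fit (adjusted p 0.0689).

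Conjugating enzymes also rose more often than they fell. Of 29 tested phase II genes, 18 rose, 1 fell and 10 did not pass the test, with a median log2 fold change of 1.51. Gstt3, a glutathione transferase, was at 13.5, 7.21 and 14.9 CPM in the controls and 145, 160 and 184 CPM in the combination. It rose 13.8-fold. Ephx1, the microsomal epoxide hydrolase, was at 57.9, 103 and 83.1 CPM in the controls and 844, 805 and 987 CPM in the combination. It rose 10.8-fold. The member that fell was the sulfotransferase Sult5a1, from 98.02 ± 43.1 CPM to 8.82 ± 5.42 CPM (SD, n = 3), 11.1-fold.

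Growth hormone targets were called higher at a share close to that of all genes, 23.5% against 24.7%, and lower at 29.4% against 19.4%. Of 17 tested genes of the growth hormone and IGF axis, 4 rose, 5 fell and 8 did not pass the test, with a median log2 fold change of -0.18, with the median turning to 2.62 in FPKM and 0.19 without control 2 and 3 that fell in the 12-library fit. Elovl3, a male-biased fatty acid elongase, was at 313, 392 and 385 CPM in the controls and 15.2, 8.53 and 22.8 CPM in the combination, with no overlap. It fell 23.4-fold (log2 fold change -4.55 ± 0.39 SE, adjusted p 0.000324). Hsd3b5, a male-specific steroid dehydrogenase, fell 6.12-fold from 102 ± 30.8 CPM to 16.6 ± 5.77 CPM (SD, n = 3), was slightly higher in FPKM and was not called in the 12-library fit (adjusted p 0.126). Igf1, the circulating growth factor itself, overlapped between groups, at 484, 827 and 284 CPM in the controls and 736, 571 and 741 CPM in the combination, and its log2 fold change of 0.36 did not pass the test (adjusted p 0.464). Without control 2, the highest library, it passed (log2 fold change 0.89, adjusted p 0.0464). Igfbp4, a binding protein of IGF1, rose 5.23-fold, at 508, 438 and 467 CPM in the controls and 2381, 2529.9 and 2486 CPM in the combination.

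Stress of the endoplasmic reticulum and shortage of amino acids leave their own marks. Of 20 tested genes of these responses, 9 rose, 2 fell and 9 did not pass the test, with a median log2 fold change of 1.0; without combination library 1, 2 or 3 the count that rose was 4, 3 or 5, and 5 with upper-quartile scaling or after thinning. Asns, asparagine synthetase and a target of ATF4, was at 4.49, 1.67 and 2.36 CPM in the controls and 23.1, 39.3 and 21.1 CPM in the combination. It rose 9.81-fold (log2 fold change 3.32 ± 0.44 SE, adjusted p 0.00128). Herpud1, which aids degradation of misfolded proteins, was at 81.3, 240.1 and 226 CPM in the controls and 707, 792 and 840.4 CPM in the combination, with control 1 the lowest. It rose 4.28-fold. Creld2, induced by misfolded proteins, was at 68.8, 204 and 108 CPM in the controls and 35.6, 52.4 and 39.7 CPM in the combination, fell 2.98-fold, was higher in FPKM and lost its call in the 12-library fit (adjusted p 0.0504), where 0 members fell in place of 2.

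Nuclear genes of the respiratory chain stood opposite to the mitochondrial share of counts. Of 30 tested, 28 rose, 0 fell and 2 did not pass the test, with a median log2 fold change of 1.46. Ndufa4, a small subunit of the chain, was at 85.6, 42.2 and 70.8 CPM in the controls and 392, 395 and 427 CPM in the combination, with no overlap. It rose 6.12-fold (log2 fold change 2.62 ± 0.28 SE, adjusted p 0.000593). Atp5a1, the alpha subunit of ATP synthase, was at 314, 216 and 245 CPM in the controls and 1094, 949.8 and 1062 CPM in the combination. It rose 4.01-fold. Among 31 ribosomal protein genes, 22 rose, 0 fell and 9 did not pass the test, with a median log2 fold change of 0.82, with 13 that rose without any 1 combination library, 12 with upper-quartile scaling and 11 after thinning. Rpl3, of the large subunit, was at 226, 135 and 170.2 CPM in the controls and 505, 456 and 471 CPM in the combination. It rose 2.69-fold. Against CBLB502 alone, in a fit of the 6 libraries of those arms, the respiratory chain list had 5 higher and 0 lower of 30 tested, median 0.13, and the ribosomal list 21 higher and 0 lower of 31 tested, median 0.30, where 15.3% of all genes were called higher. In the fit of all 12 liver libraries 0 of either list were called.

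Immediate early genes showed no common direction, with smaller shares called higher and lower than the 24.7% and 19.4% of all genes. Of 21 tested, 4 rose, 3 fell and 14 did not pass the test, with a median log2 fold change of -0.82, with the median turning to 2.02 in FPKM and 0.06 without control 2; 1 member fell without control 2 or any 1 combination library, and 2 rose without combination 1 or 2, with upper-quartile scaling or after thinning. Klf10, a transcription factor responsive to TGF-beta and glucose, was at 5.74, 18.1 and 8.97 CPM in the controls and 51.4, 68.95 and 46.5 CPM in the combination. It rose 5.08-fold.

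Markers of blood and immune cells were far lower in the combination. In whole liver RNA, fewer cells of a type and less of the RNA per cell cannot be told apart, and the controls differed in make-up as described. Members near 0 in the combination passed the filter on low counts only through the controls, so that a fall was fixed for them. Their counts and medians describe the fall and are not a test of it. Of the 6 tested erythroid genes, 0 rose, 6 fell and 0 did not pass the test, with a median log2 fold change of -9.33. The beta globin gene Hbb-bs was at 449, 91.8 and 384 CPM in the controls and 0.244, 0.586 and 0.237 CPM in the combination; control 2 held the least of the controls, and the combination was close to 0 in every library. It fell 867-fold (log2 fold change -9.75 ± 0.83 SE, adjusted p 0.000319). The alpha globin gene Hba-a1 fell 482-fold, with the same order among controls, at 436, 91.8 and 388 CPM in the controls and 0.749, 1.01 and 0.138 CPM in the combination. Alas2, the haem synthesis enzyme of red cell precursors and a defining marker, was at 58.9, 57.7 and 72.00 CPM in the controls and 36.7, 23.8 and 24.6 CPM in the combination, without overlap; it fell 2.21-fold and was higher in FPKM.

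Lymphocyte markers reached 0 in several cases. Without the filter on low counts, 0 of 20 T and NK cell genes rose and 14 fell, with a median log2 fold change of -8.15. Among 14 T and NK cell genes tested, 0 rose, 13 fell and 1 did not pass the test, with a median log2 fold change of -8.79, or -7.29 with genes at 0 set to their bound, and 11 of the 20 listed had no count in the combination. Cd8a, a coreceptor of cytotoxic T cells, was at 19.2, 12.8 and 9.44 CPM in the controls and 0, 0 and 0 CPM in the combination, at least 707-fold lower (adjusted p 0.000504). The defining marker Cd3e was low in both groups, at 1.995, 1.29 and 0 CPM in the controls and 0.749, 0.202 and 0.454 CPM in the combination, with overlap, and did not pass the test. In the B and plasma cell list, of 12 tested, 0 rose, 11 fell and 1 did not pass the test, with a median log2 fold change of -9.32, or -8.13 with bounds. The immunoglobulin light chain gene Igkc was at 158, 154 and 144 CPM in the controls and 0.450, 0.0808 and 0.355 CPM in the combination, even within the controls. It fell 515-fold (log2 fold change -8.98 ± 0.52 SE, adjusted p 0.000164).

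Myeloid markers followed with smaller differences. Of 22 tested genes of Kupffer cells, the resident macrophages, 0 rose, 16 fell and 6 did not pass the test, with a median log2 fold change of -3.05, turning to 0.24 in FPKM, and the summed level was 562 to 895 CPM in the controls and 267 to 286 CPM in the combination. Clec4f, a lectin found on Kupffer cells, was at 55.6, 109.5 and 70.1 CPM in the controls and 18.5, 19.7 and 27.4 CPM in the combination; it fell 3.59-fold (log2 fold change -1.84 ± 0.29 SE, adjusted p 0.00266) and was higher in FPKM. Vsig4, a complement receptor and the other defining marker, was at 48.6, 33.7 and 94.7 CPM in the controls and 1.61, 3.13 and 2.35 CPM in the combination. It fell 24.96-fold (log2 fold change -4.64 ± 0.47 SE, adjusted p 0.000505). Lyz2, lysozyme of macrophages and neutrophils, fell 24.98-fold, at 155, 25.9 and 89.2 CPM in the controls and 3.54, 3.37 and 3.90 CPM in the combination, with control 2 well below the other controls.

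Antigen-presenting and granulocyte genes were few. Of 9 tested dendritic cell genes, 0 rose, 7 fell and 2 did not pass the test, with a median log2 fold change of -4.78. H2-Aa, an MHC class II chain, was at 127, 85.3 and 48.9 CPM in the controls and 1.05, 1.15 and 1.52 CPM in the combination, with control 1 the highest. It fell 70.3-fold (log2 fold change -6.13 ± 0.42 SE, adjusted p 0.000195). All 4 tested neutrophil genes fell, with a median log2 fold change of -4.82, and 10 of the 14 listed were too low to be tested. The 14 listed summed to 28.3 to 44.2 CPM in the controls and 1.18 to 3.03 CPM in the combination. At such levels the filter on low counts favoured genes high in the controls, so that the fall of all 4 is a description only. Without the filter, 0 of 11 rose and 4 fell, median -3.64. S100a9, a calcium-binding neutrophil protein, was at 3.99, 6.47 and 12.3 CPM in the controls and 0.169, 0.566 and 0 CPM in the combination, fell 30.97-fold, and was not called without control 3 (adjusted p 0.0591) or combination 1. Ly6g, a defining neutrophil marker, was at 0 in all 6 libraries.

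Vessel and stromal markers were lower as well. Of 18 tested endothelial genes, 0 rose, 14 fell and 4 did not pass the test, with a median log2 fold change of -2.98, turning to 0.48 in FPKM, and 9 fell without combination 1. Kdr, the VEGF receptor, was at 16.5, 10.2 and 9.44 CPM in the controls and 1.07, 0 and 0.868 CPM in the combination. It fell 18.6-fold, but was not called without control 2 (adjusted p 0.0554) or combination 3 (adjusted p 0.0557). Stab2, a scavenger receptor of sinusoids, was at 18.96, 31.8 and 39.9 CPM in the controls and 16.6, 12.7 and 16.6 CPM in the combination. It fell 1.98-fold but was higher in FPKM and lost its call without control 2 (adjusted p 0.0885), control 3 (adjusted p 0.108) or any 1 combination library and in the 12-library fit (adjusted p 0.111). Plvap, a protein of endothelial diaphragms, was at 34.7, 27.9 and 17.9 CPM in the controls and 1.11, 1.78 and 3.94 CPM in the combination. It fell 11.8-fold. Among 17 stellate and stromal genes tested, 0 rose, 16 fell and 1 did not pass the test, with a median log2 fold change of -3.58, and 16 fell without control 1, whose summed stromal level was the highest of the controls. Col3a1, a fibrillar collagen, was at 209.8, 98.4 and 18.2 CPM in the controls and 2.85, 0.424 and 2.78 CPM in the combination, widely spread among the controls with control 1 the highest. It fell 53.9-fold. The pericyte gene Rgs5 fell 21.2-fold.

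Markers of duct cells and of kidney mostly did not pass the test. Called higher were 33.3% of the duct cell and 20.0% of the kidney genes, against 24.7% of all genes. Of 10 kidney genes tested, 2 rose, 0 fell and 8 did not pass the test, with a median log2 fold change of 0.67. The kidney list summed to 22.9 to 28.9 CPM in the controls and 54.4 to 60.4 CPM in the combination. Of 9 cholangiocyte genes, 3 rose, 1 fell and 5 did not pass the test, with a median log2 fold change of -0.10, turning to 0.42 without control 2, and 1 rose without any 1 combination library. Krt19, a keratin of bile ducts, overlapped between groups at 1.50, 2.22 and 0 CPM in the controls and 1.95, 0.647 and 0.927 CPM in the combination. Epcam had no count in the controls and 2.23, 2.22 and 1.77 CPM in the combination, at least 9.44-fold higher (adjusted p 0.0073). It too passed the filter on low counts only through the combination, so that a rise was fixed for it. Umod, made in kidney and absent from liver cells, was at 4.24, 2.59 and 3.54 CPM in the controls and 3.82, 3.72 and 2.998 CPM in the combination, with the groups overlapping. Ttr, a second defining hepatocyte gene, rose 2.19-fold, at 2221, 3378 and 2776 CPM in the controls and 5267, 7142 and 5905 CPM in the combination, and of 15 hepatocyte zonation genes, 7 rose, 0 fell and 8 did not pass the test, with a median log2 fold change of 0.94.

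Interferon-stimulated genes were lower, beside the fall of immune cell markers. Of 26 tested, 0 rose, 15 fell and 11 did not pass the test, with a median log2 fold change of -1.51, in TMM, median-of-ratios and upper-quartile scaling alike and turning to 1.06 in FPKM; 2 rose without control 2. Stat2, which carries the type I interferon signal, was at 343, 677 and 526 CPM in the controls and 80.3, 60.5 and 73.8 CPM in the combination, with no overlap. It fell 7.20-fold (log2 fold change -2.85 ± 0.29 SE, adjusted p 0.000527) (0.07 higher in FPKM on the log2 scale). Cxcl9, a chemokine induced by interferon gamma, was at 9.48, 10.2 and 9.68 CPM in the controls and 0.674, 0.606 and 0.611 CPM in the combination, level within each group. It fell 15.5-fold. The part of the immune cell markers in this fall was not tested.

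The largest differences were taken among called genes without overlap that reached 5 FPKM in the higher group, with predicted gene models and pseudogenes left out. They were mostly of these kinds. The sulfotransferase Sult2a7 was at 0 in the controls, with 50.7, 27.5 and 35.6 CPM in the combination, at least 173-fold higher (adjusted p 0.000451). Sult1e1, which sulfates oestrogen, was at 0, 0 and 1.65 CPM in the controls and 84.6, 173 and 130 CPM in the combination. It rose 235-fold. Tff3, a mucosal repair peptide, was at 0 in the controls and at 6.39, 38.7 and 14.9 CPM in the combination, at least 91.03-fold higher (adjusted p 0.00507), with combination 2 well above the others and no call with limma-voom (adjusted p 0.0819). Genes at or near 0 in the controls passed the filter on low counts only through the combination, so that a rise was fixed for them. Their folds and adjusted p describe the rise and are not a test of it. Of the genes called higher, 345 had no count in any control, and 86 of those called lower had none in any combination library.

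Rgs16, a regulator of G protein signalling, was at 0, 8.70 and 4.01 CPM in the controls and 420.1, 692 and 521 CPM in the combination. It rose 128-fold (log2 fold change 6.94 ± 0.88 SE, adjusted p 0.00108). Slc16a5, a monocarboxylate transporter, was at 0, 1.67 and 0 CPM in the controls and 72.9, 48.7 and 60.9 CPM in the combination, with 2 controls at 0. It rose 109.6-fold. Mpzl2, an adhesion protein, rose 60.6-fold, at 2.49, 0.370 and 2.12 CPM in the controls and 99.4, 116 and 86.99 CPM in the combination. Cyp4a14, Cyp2b10 and Lcn2, described above, were also among the 10 highest.

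At the other end stood the globin genes Hbb-bt, Hba-a2, Hbb-bs and Hba-a1, with falls of 1275-fold, 1220-fold, 867-fold and 482-fold, then Igkc and Scd1. Tmsb10 and Tmsb4x, which encode actin-binding thymosins abundant in blood cells, fell 50.02-fold and 41.1-fold. Tmsb4x was at 661, 317 and 584 CPM in the controls and 14.2, 11.7 and 12.1 CPM in the combination, with no combination library near the controls. Tyrobp, an adaptor of myeloid and NK cell receptors, was at 42.7, 26.5 and 56.2 CPM in the controls and 1.09, 1.07 and 1.22 CPM in the combination. It fell 37.1-fold. Lars2, the mitochondrial leucyl-tRNA synthetase, was at 5817, 5476 and 4259.7 CPM in the controls and 151, 120 and 95.7 CPM in the combination. It fell 42.4-fold (log2 fold change -5.41 ± 0.31 SE, adjusted p 0.000164); it moved in the direction of the mitochondrial share of counts, and the part of that share in its level was not tested.

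The single agents were set beside the combination on a common scale over 12 liver libraries, with the spread of all 4 groups in one fit of 18381 genes. Against cisplatin alone, 0.724% of genes were higher and 3.07% lower in the combination, and against CBLB502 alone 2.24% were higher and 3.88% lower. Cisplatin library 3 differed from cisplatin 1 and 2 in many genes, and without it 2103 genes (10.9%) were higher and 2179 (11.3%) lower than cisplatin alone in place of 133 and 564. With the 6 libraries of the groups compared, 11 (0.0677%) were higher and 80 (0.492%) lower than cisplatin (3613 at an unadjusted p below 0.05), and 2599 higher and 2728 lower than CBLB502. In the 12-library fit without any 1 library of the 2 arms, the counts against CBLB502 were 126 to 185 and 287 to 399 in place of 412 and 713, and those against cisplatin 2 to 18 and 33 to 209 where cisplatin 3 was kept. The genes shown in this comparison were chosen after their values were seen, and they are described on the 12-library scale, on which levels differ from those above.

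Of the p53 targets shown, Cdkn1a separated the arms with cisplatin from those without and Mdm2 did not. Cdkn1a was at 10.4, 6.14 and 12.2 CPM in the controls and 4.19, 6.13 and 3.91 CPM with CBLB502 alone. It was at 466, 464 and 399 CPM with the combination and 828, 629 and 206 CPM with cisplatin alone. Both cisplatin-treated groups lay far above the others, cisplatin 3 below the combination and cisplatin 1 and 2 above it, so that the combination was not told apart from cisplatin (log2 difference -0.32 ± 0.42 SE, adjusted p 0.744) and was higher than CBLB502 alone (log2 difference 6.54 ± 0.54 SE, adjusted p 0.000201). Mdm2 was at 24.6, 33.4 and 34.96 CPM in the controls and 24.7, 20.5 and 30.8 CPM with CBLB502 alone. It was at 127, 82.3 and 89.8 CPM with the combination and 60.7, 32.9 and 65.3 CPM with cisplatin alone, highest in the combination and with cisplatin 2 within the control range, with log2 difference 0.91 ± 0.28 SE, adjusted p 0.0954 against cisplatin and log2 difference 1.09, adjusted p 0.0233 without cisplatin 3. Over the 30 targets the combination had 0 higher and 1 lower of 30 tested, median -0.09, against cisplatin, 0 called with the 6 libraries of those arms, and 19 higher and 0 lower of 30 tested, median 1.91, against CBLB502.

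The acute phase genes Saa1 and Lcn2 were lower in the combination than in 2 of the cisplatin libraries. Saa1 was at 14.99, 37.95 and 68.5 CPM in the controls and 71.3, 21.8 and 37.8 CPM with CBLB502 alone. It was at 502.2, 883 and 249.5 CPM with the combination and 49610, 19990 and 343 CPM with cisplatin alone; cisplatin 1 and 2 exceeded every combination library many times over, while cisplatin 3 lay within the combination range. The difference from cisplatin was log2 difference -5.42 ± 1.33 SE, adjusted p 0.0474, and log2 difference -5.99, adjusted p 0.000338 without cisplatin 3. The call was lost with the 6 libraries of those arms (adjusted p 0.134) and without any 1 other library of them (adjusted p 0.104 to 0.196). Lcn2 was at 6.99, 13.1 and 14.8 CPM in the controls and 13.4, 7.93 and 7.50 CPM with CBLB502 alone. It was at 786, 1354 and 616 CPM with the combination and 12860, 8924 and 107 CPM with cisplatin alone, with log2 difference -2.99 ± 1.06 SE, adjusted p 0.135 against cisplatin and log2 difference -3.57, adjusted p 0.000173 without cisplatin 3. With the 6 libraries of the combination and cisplatin arms Lcn2 was not called (adjusted p 0.258). Of the list, 0 higher and 8 lower of 28 tested, median -1.72, stood against cisplatin, and 0 higher and 20 lower of 28 tested, median -2.16, without cisplatin 3. With the 6 libraries 0 of 28 were called, in a fit with only 0.492% of all genes lower. Against CBLB502 alone the same list had 9 higher and 0 lower of 28 tested, median 1.18, and with the 6 libraries of those arms 24 higher and 1 lower of 28 tested, median 1.19.

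Mt1 was at 41.96, 18.3 and 42.1 CPM in the controls and 19.2, 20.9 and 18.5 CPM with CBLB502 alone. It was at 1366, 2367 and 1430 CPM with the combination and 7842, 6784 and 769 CPM with cisplatin alone, with cisplatin 1 and 2 above and cisplatin 3 below the combination (log2 difference -1.58 ± 0.64 SE, adjusted p 0.189, and without cisplatin 3 log2 difference -2.09, adjusted p 0.00126). Igfbp1 followed that order, at 25.6, 60.1 and 100.4 CPM in the controls and 4.62, 5.73 and 6.64 CPM with CBLB502 alone. It was at 429.8, 884 and 554 CPM with the combination and 7258, 5722 and 182 CPM with cisplatin alone. The difference from cisplatin was log2 difference -2.82 ± 0.93 SE, adjusted p 0.112, and without cisplatin 3 log2 difference -3.38, adjusted p 0.000517, and the combination was higher than CBLB502 alone (log2 difference 6.78 ± 1.12 SE, adjusted p 0.00484). With the 6 libraries of the combination and cisplatin arms, neither Mt1 (adjusted p 0.3) nor Igfbp1 (adjusted p 0.217) was called. Hmox1 was lowest in the combination, at 35.6, 16.9 and 42.1 CPM in the controls and 35.1, 20.8 and 22.2 CPM with CBLB502 alone. It was at 1.57, 3.18 and 3.57 CPM with the combination and 59.98, 25.9 and 9.58 CPM with cisplatin alone, below cisplatin (log2 difference -3.52 ± 0.62 SE, adjusted p 0.014) and below CBLB502 (log2 difference -3.23 ± 0.61 SE, adjusted p 0.0103). The call against cisplatin was lost with 6 libraries (adjusted p 0.0787) and without combination 1, 2 or 3 (adjusted p 0.0824, 0.0753 or 0.073), and that against CBLB502 without combination 1 (adjusted p 0.0532).

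The metabolic genes shown had their highest mean level in the combination, but not all of their lists did. Against CBLB502 alone, with the 6 libraries of those arms, the fatty acid oxidation list had 7 higher and 7 lower of 30 tested, median 0.01. Its sums were 12410, 14140 and 14630 CPM with CBLB502 alone and 12100, 9019 and 13940 CPM with the combination. In that fit the amino acid and urea list had 19 higher and 1 lower of 26 tested, median 0.86. The fasting and glucocorticoid list had 21 higher and 0 lower of 22 tested, median 1.49. Bhmt was at 836, 946 and 1276 CPM in the controls and 3194, 2663 and 3376 CPM with CBLB502 alone. It was at 22390, 17730 and 19150 CPM with the combination and 676, 1855 and 7150 CPM with cisplatin alone, highest in the combination, with log2 difference 2.61 ± 0.66 SE, adjusted p 0.051 against cisplatin, log2 difference 3.96, adjusted p 0.000127 without cisplatin 3, and log2 difference 2.68 ± 0.66 SE, adjusted p 0.0353 against CBLB502. That last call was lost without any 1 library of the 2 arms (adjusted p 0.0896 to 0.143). With the 6 libraries of the combination and cisplatin arms, neither Bhmt (adjusted p 0.148) nor Cps1 (adjusted p 0.132) was called. Cps1 was at 284, 553 and 582 CPM in the controls and 3500, 3148 and 2635 CPM with CBLB502 alone. It was at 7745, 6521 and 7314 CPM with the combination and 1112, 1603 and 3985 CPM with cisplatin alone, with log2 difference 1.69 ± 0.45 SE, adjusted p 0.06 against cisplatin and log2 difference 2.41, adjusted p 0.000499 without cisplatin 3, and it was higher than CBLB502 with the 6 libraries of those arms (log2 difference 1.22, adjusted p 0.000434; log2 difference 1.22 ± 0.44 SE, adjusted p 0.142 in the 12-library fit). Cyp4a14 was at 5.99, 5.83 and 3.66 CPM in the controls and 299.9, 431 and 225 CPM with CBLB502 alone. It was at 1624, 764 and 1991 CPM with the combination and 45.97, 198 and 1631 CPM with cisplatin alone; cisplatin 3 lay among the combination libraries and the other 2 well below them, and neither difference of the combination passed the test in the 12-library fit (log2 difference 1.22 ± 0.90 SE, adjusted p 0.495 for cisplatin and log2 difference 2.19 ± 0.93 SE, adjusted p 0.217 for CBLB502). It was higher than cisplatin without cisplatin 3 (log2 difference 3.58, adjusted p 0.00215) and higher than CBLB502 with the 6 libraries of those arms (log2 difference 2.19, adjusted p 0.00296). Lpin1 was at 31.4, 21.9 and 24.4 CPM in the controls and 122, 256 and 54.7 CPM with CBLB502 alone. It was at 973, 1031 and 942 CPM with the combination and 130.3, 488 and 311 CPM with cisplatin alone, above both single agents in every library, with log2 difference 1.66 ± 0.53 SE, adjusted p 0.101 against cisplatin and log2 difference 2.77 ± 0.55 SE, adjusted p 0.0133 against CBLB502, a call lost without CBLB502 library 1 (adjusted p 0.0766).

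Scd1 was lowest and Ciart highest in the combination. Scd1 was at 1276, 1616 and 639 CPM in the controls and 3534, 7703 and 3259 CPM with CBLB502 alone. It was at 42.6, 21.9 and 29.7 CPM with the combination and 948, 1035 and 208 CPM with cisplatin alone. Each combination library lay below each library of the other arms, and the gene was lower than with cisplatin (log2 difference -4.54 ± 0.66 SE, adjusted p 0.00715) and lower than with CBLB502 (log2 difference -7.26 ± 0.75 SE, adjusted p 0.000505), the latter being the arm with the highest levels. Ciart was at 2.40, 2.99 and 3.05 CPM in the controls and 12.1, 23.9 and 18.4 CPM with CBLB502 alone. It was at 33.3, 35.05 and 40.6 CPM with the combination and 2.66, 8.89 and 7.28 CPM with cisplatin alone, higher in the combination than with cisplatin (log2 difference 2.53 ± 0.39 SE, adjusted p 0.00923), and was not told apart from CBLB502 (log2 difference 1.0 ± 0.37 SE, adjusted p 0.151), although it was with the 6 libraries of those arms (log2 difference 1.01, adjusted p 0.0107). The difference from cisplatin in both genes was not called with 6 libraries, at adjusted p 0.052 for Scd1 and 0.0607 for Ciart, nor without combination 2 or 3.

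**Figure D4:**
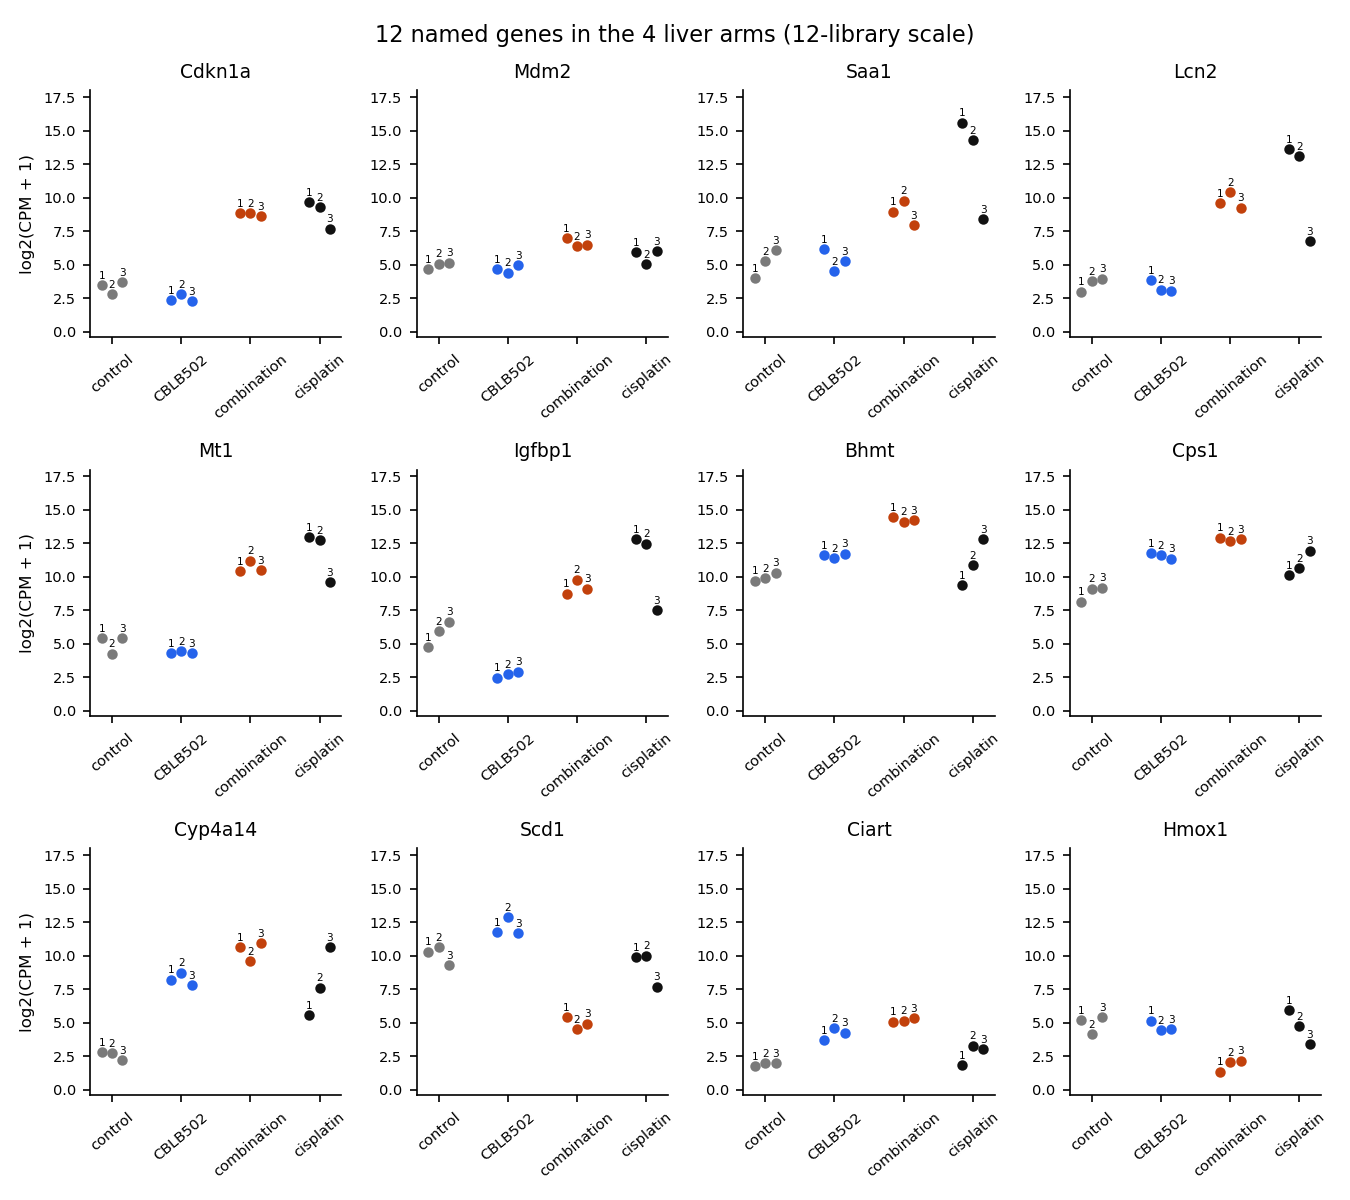
Level of 12 genes as log2(CPM + 1) on the 12-library scale (vertical axis) in the 3 libraries of each liver arm, with the library number above each point. Cdkn1a is high in both cisplatin-treated arms, Saa1, Lcn2, Mt1 and Igfbp1 are highest in cisplatin 1 and 2, and Scd1 and Hmox1 are lowest in the combination.

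Sums of erythroid, T and NK, B and plasma, dendritic, endothelial and stromal markers separated the arms with cisplatin from those without. Those of Kupffer cell and neutrophil markers did not. Summed over the erythroid list, levels were 1205, 287 and 1198 CPM in the controls and 358, 374 and 349 CPM with CBLB502 alone. The sums were 33.3, 22.4 and 21.97 CPM with the combination and 9.99, 8.89 and 18.9 CPM with cisplatin alone. The T and NK cell list summed to 116, 87.4 and 58.95 CPM in the controls and 24.2, 21.8 and 17.7 CPM with CBLB502 alone. The sums were 2.08, 0.519 and 1.83 CPM with the combination and 0.814, 0.344 and 4.78 CPM with cisplatin alone. Both were lower in every cisplatin-treated library than in every library without it, and the combination had 0 higher and 9 lower of 19 tested, median -5.82, against CBLB502 for T and NK cells, with 0 higher and 0 lower of 19 tested, median -1.58, against cisplatin. Kupffer cell and macrophage genes summed to 658, 478 and 771 CPM in the controls and 1195, 739.5 and 748 CPM with CBLB502 alone. The sums were 231, 228 and 246 CPM with the combination and 1160, 584 and 502.4 CPM with cisplatin alone, lowest in the combination, with 0 higher and 17 lower of 22 tested, median -3.31, against CBLB502 and 0 higher and 5 lower of 22 tested, median -1.45, against cisplatin. With the 6 libraries of each pair of arms the Kupffer cell counts were 18 lower than CBLB502 and 0 called against cisplatin. The neutrophil list summed to 35.4, 24.1 and 35.98 CPM in the controls and 9.01, 5.68 and 6.70 CPM with CBLB502 alone. The sums were 1.02, 2.60 and 1.46 CPM with the combination and 64.4, 88.5 and 5.20 CPM with cisplatin alone, so that the combination held the least and cisplatin 1 and 2 the most. Clec4f, the Kupffer cell lectin, was at 44.6, 93.2 and 60.4 CPM in the controls and 164, 84.2 and 106 CPM with CBLB502 alone. It was at 15.97, 16.9 and 23.6 CPM with the combination and 19.2, 16 and 102 CPM with cisplatin alone, lower in the combination than with CBLB502 (log2 difference -2.65 ± 0.64 SE, adjusted p 0.0309; the call was lost without any 1 library of these arms, adjusted p 0.0632 to 0.132) and not told apart from cisplatin (log2 difference -1.28 ± 0.61 SE, adjusted p 0.258), a difference that turned to 0.10 without cisplatin 3. Mitochondrial counts were 6.73 to 7.11% of the CBLB502 libraries and 4.39 to 5.25% of the combination, and their part in these differences was not tested.

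**Figure D5:**
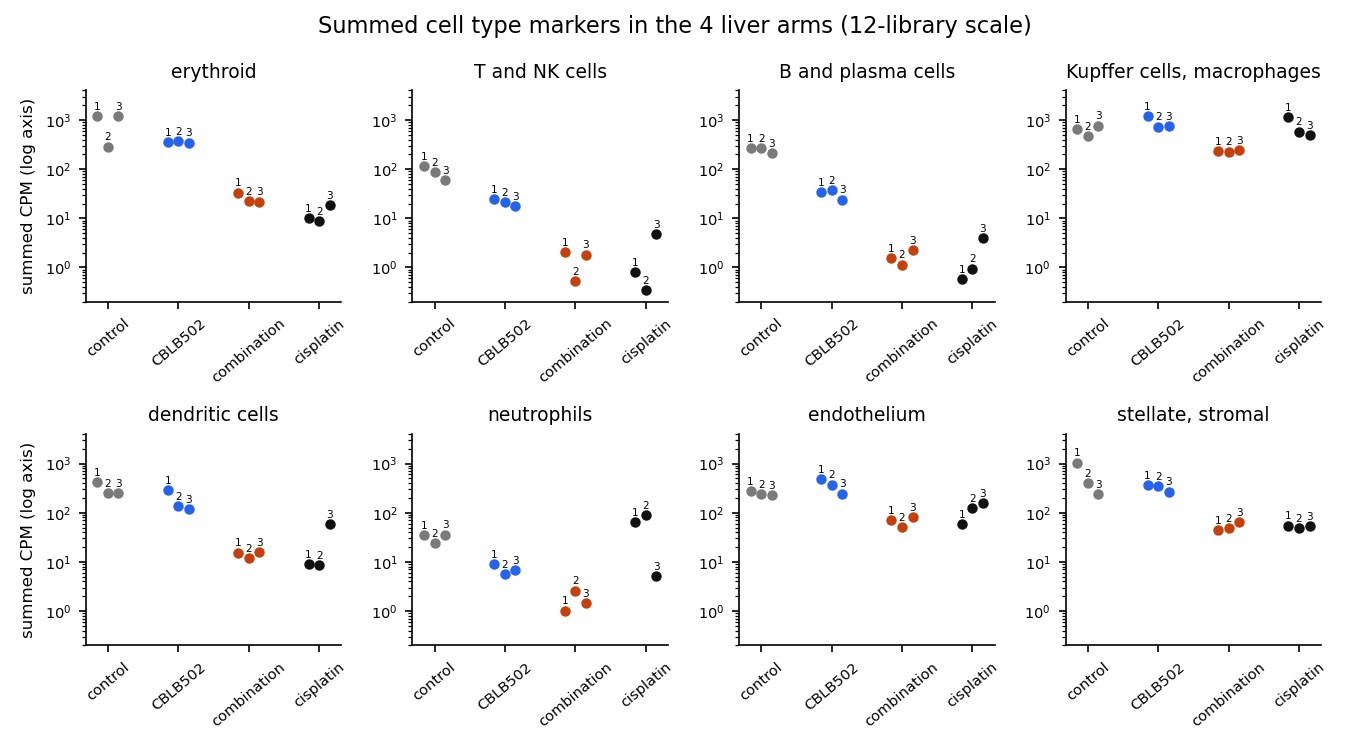
Summed CPM of the listed markers of 8 cell types (vertical axis, log scale, 12-library scale) in the 3 libraries of each liver arm, with the library number above each point. Erythroid, T and NK, B and plasma, dendritic, endothelial and stromal sums are lower in all 6 cisplatin-treated libraries than in all 6 others. Kupffer cell and neutrophil sums are not, and neutrophil sums are highest in cisplatin 1 and 2.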

How the data were processed

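Bulk RNA-seq of liver was analysed in 6 libraries, 3 untreated and 3 given CBLB502 and cisplatin, with the 6 libraries of the single agents for the last comparison. Total RNA was extracted with Trizol, per the labels' protocols, and reads were handled with cutadapt 1.9 and FastQC, per the submitters' processing notes. The authors deposited a table of raw counts and FPKM per gene and library, per the file headers. The aligner, counting program, strand setting and genome build are not given in the sources used here; 99.65% of 33272 gene IDs were found in GENCODE vM21 (GRCm38), all on the same chromosome. The 37 mitochondrial genes and 7 chromosome 1 copies were left out of library sizes, scaling and tests.

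Counts were tested with edgeR 4.0.16 in R 4.3.3 (filterByExpr, TMM, quasi-likelihood test, Benjamini-Hochberg adjustment over all genes tested, threshold 0.05), in the 6 libraries for the comparison with control and in 12 liver libraries for those with the single agents. SE is the log2 fold change divided by the root of the F statistic. A fold against a group without counts is a lower bound set at 3 counts over that group, and covers counting error only. Gene lists were described by counts of called members and medians, without a test of the list. Alternatives were other scalings, filters, DESeq2 1.42.0, limma 3.58.1 with voom or on log2(FPKM + 1) for genes of at least 1 FPKM, thinning of the combination libraries to 3.081 M (mega) counts, a replicate block and leaving out each library. In simulated counts of 15086 genes for the comparison with control, edgeR recovered 45.4% of 97 genes changed by 2 log2 units and 78.9% of 90 changed by 4, with 12 false calls. Far fewer genes changed there than the 44.1% called in the data, so that this recovery may not hold for the comparison itself.

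The members and lists were chosen with earlier results of these data known. Named genes are the 10 highest and 10 lowest log2 fold changes among called genes without overlap and reaching 5 FPKM in the higher of the groups, up to 4 such genes per list, and a set of genes kept whatever their result. Some of the genes the rule takes are not reported here. The following were chosen after their values were seen: Ccng1, Eda2r, Ddb2, Bax, Gdf15, Serpina3g, Lifr, Nfkb1, Nfkb2, Relb, Vcam1, Ccl5, Cxcl10, Slc39a14, Hmox1, Sgk1, Npas2, Nr1d1, Cpt1a, Nr0b2, Sult5a1, Ass1, C8a, Mki67, Ccnd1, Cxcl9, Cfd, Adipoq and Acta2. Of the columns with values, 9 were not used. Replicate numbers are shared by the groups, but deviations of same-numbered libraries from their group means correlated at 0.13, -0.00 and 0.04, so they were not treated as pairs. A total of 17674 genes were too low to be tested.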

Additional observations from a re-analysis of the deposited data

How the results depend on the processing

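In the comparison with control, genes called higher numbered 2754 to 3958 and genes called lower 2244 to 4006 over the scalings, filters, tools and 12-library fit. Higher genes fell to 2339 after thinning, and with limma on log2(FPKM + 1) there were 9121 higher against 95 lower genes. Leaving out 1 library gave 2367 to 4534 higher and 2099 to 3106 lower. The lists held 301 higher and 153 lower genes and had a median of 0.72, against 0.4 with upper-quartile scaling and, in FPKM, 489, 20 and 3.26. Leaving out 1 library gave 246 to 321, 128 to 152 and 0.57 to 0.83. FPKM divide by totals that include the mitochondrial genes. On that scale these log2 differences turned: Ddb2 0.80, Lifr 0.35, Sgk1 0.72, Arntl 0.72, Mlxipl 0.71, Nr0b2 1.24, Hsd3b5 0.22, Creld2 1.30, Clec4f 0.83, Stat2 0.07, Stab2 0.69, Alas2 1.37 and C8a 2.01.

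Genes that had not passed the test changed sign more easily, and the cause was not tested. Bax was -0.04 with median-of-ratios scaling and with DESeq2, -0.21 with upper-quartile scaling and -0.26 after thinning. Gdf15 was -0.05 with upper-quartile scaling and -0.14 to 2.21 without 1 library. Hmgcs1 was -0.11 with upper-quartile scaling and after thinning and -0.25 to 1.63 without 1 library. Umod was -0.13 with median-of-ratios scaling, -0.30 with upper-quartile scaling, -0.05 with the minimum of 10 counts, -0.11 with DESeq2, -0.01 after thinning and -0.11 to 0.26 without 1 library. Krt19 was 0.04 without a filter, 0.44 with limma-voom and -0.60 to 0.73 without 1 library.

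With the replicate block, which the data do not ask for, 3193 genes were higher and 2214 lower, and Krt19 was 0.36. Library 1 of each group correlated best with its own number and libraries 2 and 3 did not. Of 121 named genes, 8 lost their call in the 12-library fit. Against cisplatin 11 were higher and 80 lower with 6 libraries, and 2 to 2103 and 33 to 2179 without 1 library; against CBLB502 the counts were 2599 and 2728, and 126 to 185 and 287 to 399. Without 1 library the difference of Cdkn1a from cisplatin was -0.72 to 0.08 (turning without cisplatin 1) and that of Clec4f -1.69 to 0.10 (turning without cisplatin 3). The fall in mitochondrial share was -84.5 percentage points with the chromosome 1 copies out of the denominator, against -66.35. Depth in the controls limits low genes: 17674 genes were not tested.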
